A study of Amaranthus hybridus and Amaranthus hypochondriacus with 18 samples.

Results

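In leaves of *A. hypochondriacus*, 150 transcripts formed the set that was lowest in common under salt stress and water deficit, and they included transcripts described as light-harvesting proteins, photosystem subunits, circadian clock regulators, terpene and sterol enzymes, and proteins that take up and reduce nitrate and sulfate. The set was chosen by its measured values. Transcripts were kept after the default expression filter of edgeR if all 6 stress libraries lay below all 3 control libraries in log2 CPM (CPM, counts scaled to the size of the library, with TMM scaling factors and a prior count of 2), and were ranked by the smaller of the falls from the control mean under salt and under water deficit, and the 150 with the largest such fall were retained. Transcripts of 16 assembly components were left out of the ranking, and 13 transcripts on them would have ranked among the 150. The deposited table holds 30946 transcripts of this species, of which 12429 passed the filter, 1475 had all stress libraries below all controls (11.9%), and 1456 of these lay outside the left-out components. The 150 members are therefore 1.21% of the transcripts tested.

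The libraries came from the cultivated *A. hypochondriacus* cv. Nutrisol and from the wild *A. hybridus*, with 3 libraries of each species for watered controls, salt stress and water deficit, 18 in all. A library was made from the combined leaves of 3 plants, so its values are averages over plants. Salt-stressed plants received 100 ml of NaCl solution per day at 0.15 M for 7 days, 0.3 M for 4 days and 0.5 M for 3 days, and water-deficit plants stayed without irrigation for 14 days. Control plants were watered throughout, and the hour of harvest is not given in the sources used here. *A. hypochondriacus* libraries held 10920861 to 20529277 counts, of which 0.32 to 1.5 M lay outside the 20 most abundant transcripts, and the replicate 2 library of the water deficit group was the smallest on both measures.

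Light-harvesting proteins bind chlorophyll and pass excitation to the photosystems, where carotenoids also protect the pigment bed. Their genes, and many of plastid metabolism and of nitrate and sulfate reduction, are under control of light and of the circadian clock, in which pseudo-response regulators repress and reveille proteins activate other clock genes in turn through the day. In leaves, nitrate and sulfate are reduced with electrons from photosynthesis, and the same plastid supplies isoprenoid precursors for carotenoids and the chlorophyll side chain, while triterpenes and sterols are built outside it.

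Of the 150 members, 110 had a description and 40 had none or were listed as uncharacterized or hypothetical. The descriptions come from the part of the study's tables at hand, which covers transcripts that it selected on these same libraries under salt. Counts of described transcripts are therefore not independent evidence of a direction. Transcripts that the study selected under water deficit alone are missing from these counts. Members lay on 142 assembly components, and 6 components carried more than 1 member. Control means ranged from 1.07 to 219 CPM with a median of 4.32 CPM, which corresponds to a median of 54.8 counts per control library. The median was 13.2 counts per salt library and 7 counts per water deficit library. No member was at 0 counts in all 6 stress libraries. DN15171_c0_g1_i1 and DN13237_c0_g1_i1, both without a description, were at 0 in all 3 salt libraries, which puts their control means at least 33.2-fold and 35.8-fold higher than a floor of 3 counts over the salt group. The tropinone reductase homolog DN2007_c0_g1_i1 was at 0 in all 3 water deficit libraries, at least 23.9-fold below its control mean by the same floor.

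The median difference from control over the members was -2.80 log2 CPM under salt (range -5.35 to -1.98) and -2.73 log2 CPM under water deficit (range -5.77 to -1.98), beside medians of 0.01 and -0.01 over all transcripts tested. These differences selected the members and are given without a test. In bulk leaf RNA, fewer cells of a type and less RNA per cell cannot be told apart. All 150 would also be called lower under salt (FDR below 0.01 and log2FC below -1 in the quasi-likelihood test of edgeR), where 6.61% of all transcripts tested were, and all 150 under water deficit, where 6.96% were, which the selection itself brings about. Summed over members, the controls held 1885, 2154 and 2151 CPM, the salt libraries 289.7, 249.9 and 244.3 CPM, and the water deficit libraries 249.9, 244.6 and 241.2 CPM. The sums of the salt and water deficit libraries overlapped, and all were below the controls, as the selection required. The rank limit cut through a continuous series. The last members inside were an omega-6 fatty acid desaturase-type transcript (DN5429_c0_g1_i1, smaller fall of -1.98 log2 CPM) and divaricata-like DN2829_c0_g1_i1 (-1.98), and the first transcripts outside were DN4589_c0_g2_i1, listed as "serine mitochondrial" (-1.97), and the ferritin transcript DN17916_c0_g1_i1 (-1.96).

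**Figure D1:**
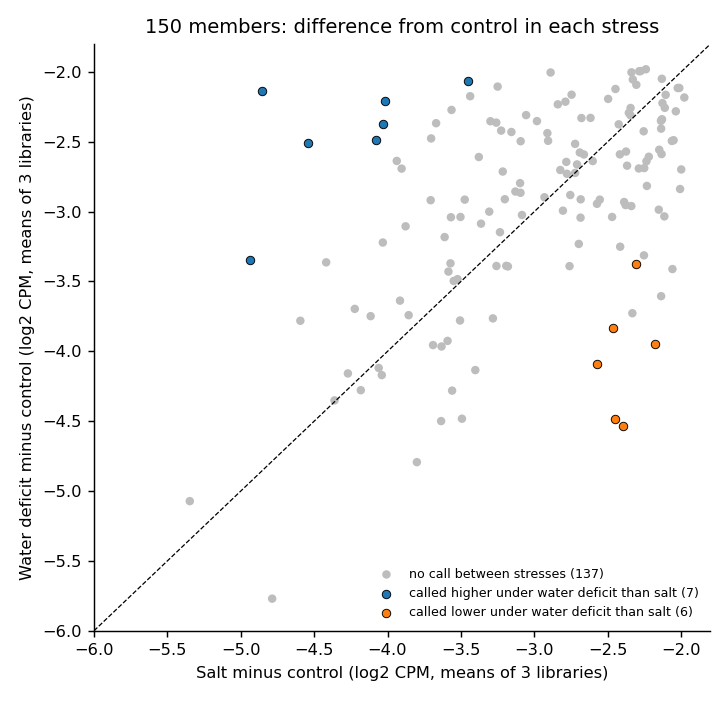
Each point is 1 of the 150 members, with the salt minus control difference on the horizontal axis and the water deficit minus control difference on the vertical axis, both in log2 CPM between means of 3 libraries. The dashed line marks equal differences. The 7 blue points above it are members called higher under water deficit than salt and the 6 orange points below it are those called lower, and the remaining 137 had no call.

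The members that rank highest with a description included enzymes of specialised metabolism, transporters and light-harvesting proteins. Levels are given below as CPM without a prior count, and folds as differences between group means of log2 CPM with it, which understates the fall of transcripts near 0. Cellulose synthase-like protein g2, DN23693_c0_g1_i1, had 16.9, 16.6 and 16.1 CPM in the control libraries, 0.455, 0.673 and 0.377 CPM under salt and 0.0790, 0.135 and 0.479 CPM under water deficit. All stress libraries were at or below 0.673 CPM, and the fall of the mean was 27.6-fold under salt and 54.6-fold under water deficit. Proteins of the cellulose synthase-like g family are glycosyltransferases, and in spinach 1 of them adds a sugar acid to triterpenes. A second member of the family, cellulose synthase-like protein g3 (DN2188_c0_g1_i1), had 0.910, 0.620 and 0.377 CPM in the salt libraries and 0.158, 0.406 and 0.174 CPM in the water deficit libraries, against 3.44, 4.34 and 2.40 CPM in the controls. All 5 described transcripts of the family were called lower under both stresses, and 2 of them are members. The proton-dependent oligopeptide transporter-type transcript DN23783_c0_g1_i1, of a family that carries nitrate, peptides and hormones, had 15.3, 19.9 and 19.0 CPM in the control libraries, 1.05, 0.808 and 0.808 CPM under salt and 0.949, 0.541 and 1.05 CPM under water deficit. Its 6 stress libraries lay between 0.541 and 1.05 CPM with the salt and water deficit values interleaved. Stem-specific protein tsjt1 (DN7054_c0_g1_i1) had 167, 191 and 169 CPM in the control libraries, 13.1, 11.8 and 11.1 CPM under salt and 19.1, 8.66 and 13.3 CPM under water deficit, a fall of 14.5-fold under salt and 13.4-fold under water deficit. The btb poz and taz domain-containing protein 3-like transcript DN4933_c0_g1_i1 went from 7.54 to 10.1 CPM in the controls to between 0.269 and 0.632 CPM under stress.

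The 2 tropinone reductase homologs lie on 1 component and share its sequence context, and reads common to both were not counted. DN2007_c0_g2_i1 had 1.59, 2.78 and 2.81 CPM in the control libraries, 0.0910, 0.0269 and 0 CPM under salt and 0.0790, 0 and 0 CPM under water deficit. DN2007_c0_g1_i1 had 1.26, 1.85 and 1.90 CPM in the control libraries, 0.0455, 0.0269 and 0 CPM under salt and 0, 0 and 0 CPM under water deficit. Both transcripts were nearly absent from the stress libraries, at no more than 0.0910 CPM, where single reads set the values. Other members of this rank were an aquaporin-like transcript (DN14162_c0_g1_i1), 2.16 CPM in the controls and at most 0.227 CPM under stress, and alpha-l-arabinofuranosidase 1-like (DN1325_c0_g1_i1), an enzyme that removes arabinose from cell wall polymers, which had 1.14, 1.05 and 0.539 CPM in the salt libraries and 0.553, 0.676 and 1.05 CPM in the water deficit libraries, against 8.89, 9.61 and 7.95 CPM in the controls. Flavonoid 3-hydroxylase-like DN12801_c0_g1_i1, named for an enzyme that hydroxylates flavonoids, had 0.0910, 0.0539 and 0.162 CPM in the salt libraries and 0.0790, 0 and 0.131 CPM in the water deficit libraries, against 1.76, 3.13 and 2.15 CPM in the controls. A pair of members was described as xanthoxin dehydrogenase, the enzyme type that turns xanthoxin into abscisic aldehyde on the path to abscisic acid. DN3444_c0_g1_i1 had 0.0455, 0.135 and 0.0539 CPM in the salt libraries and 0.0790, 0 and 0.0872 CPM in the water deficit libraries, against 1.43, 1.92 and 1.49 CPM in the controls, and DN22963_c0_g1_i1 had 0.0910, 0.135 and 0.0539 CPM in the salt libraries and 0.0790, 0.135 and 0.0872 CPM in the water deficit libraries, against 2.10, 1.42 and 1.41 CPM in the controls. Neither passed 0.135 CPM in a stress library.

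**Figure D2:**
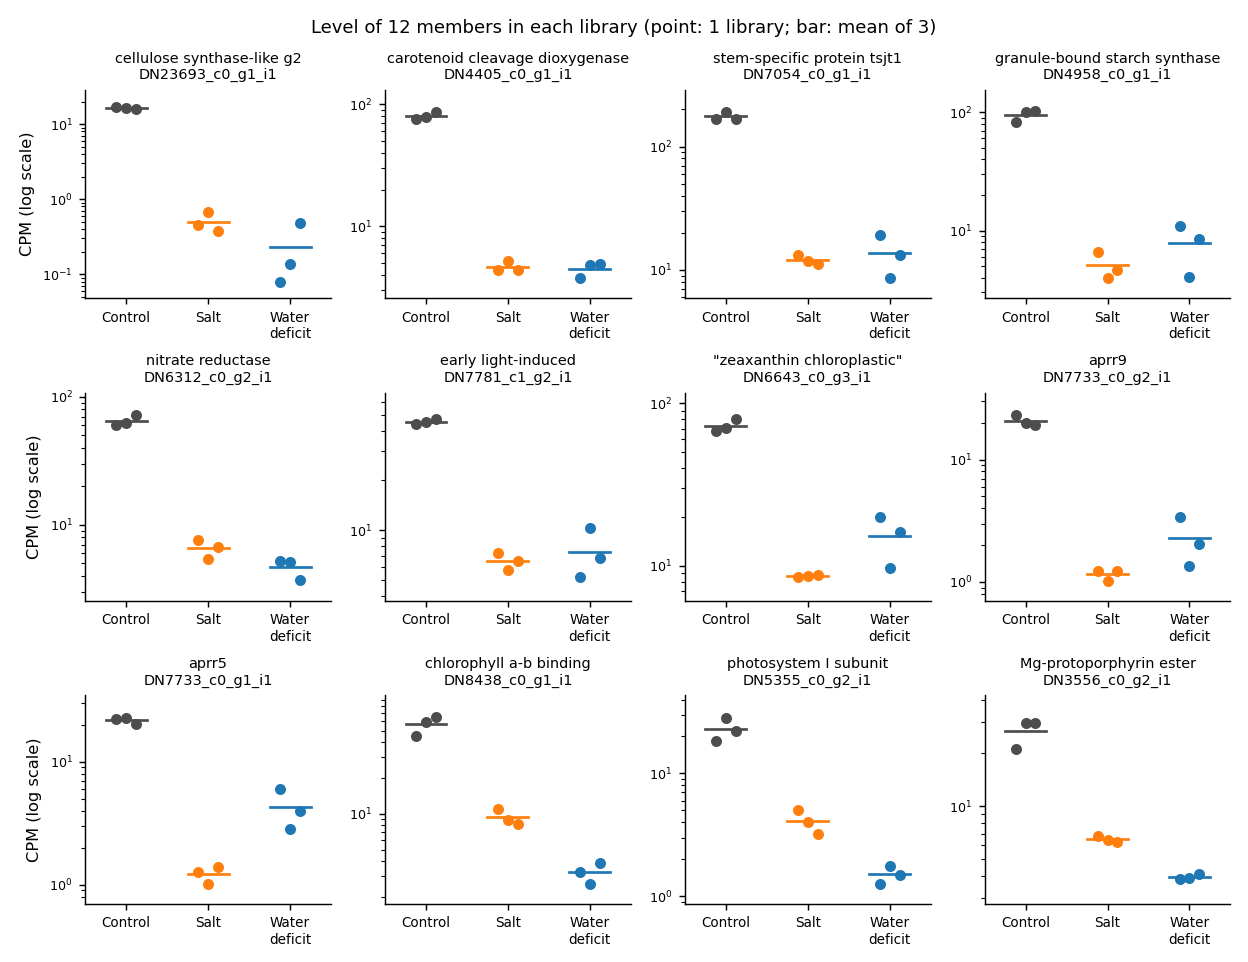
Level of 12 members in each of the 9 *A. hypochondriacus* libraries, in CPM on a log axis, with 1 point per library and a bar at the mean of 3. In every panel the 3 control points lie above all 6 stress points, as the selection required. The bottom row shows members in which the water deficit points lie wholly above the salt points (aprr5) or wholly below them (chlorophyll a-b binding, photosystem I subunit, Mg-protoporphyrin ester).

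Light-harvesting and photosystem transcripts gave 10 members, and in 7 of these every water deficit library was below every salt library, as it was in 15.6% of all transcripts tested. All 16 described chlorophyll a-b binding transcripts were called lower under salt and all 16 under water deficit. Of these, 6 are members, 4 lie on left-out components and the other 6 were not among the 150. The members had medians of -3.52 log2 CPM under salt and -4.31 under water deficit. DN8072_c0_g1_i1 had 40.8, 65.1 and 68.2 CPM in the control libraries, 5.59, 4.44 and 2.48 CPM under salt and 1.66, 2.17 and 2.00 CPM under water deficit. DN7291_c0_g1_i1 had 62.2, 80.9 and 76.4 CPM in the control libraries, 8.46, 4.96 and 4.52 CPM under salt and 3.56, 2.03 and 4.14 CPM under water deficit. In both transcripts every water deficit library was below every salt library. The lhcii type 1-like transcript DN7552_c1_g1_i1, named for the major antenna complex of photosystem II, had 42.1, 61.1 and 62.8 CPM in the control libraries, 8.05, 4.55 and 3.50 CPM under salt and 3.48, 2.3 and 3.35 CPM under water deficit. DN7552_c0_g2_i1, from the same component, had 14.3, 15.4 and 23.4 CPM in the control libraries, 2.64, 1.45 and 0.646 CPM under salt and 1.98, 1.08 and 1.35 CPM under water deficit. The water deficit libraries lay below the salt libraries in the first of this pair and overlapped with them in the second. DN17967_c0_g1_i1, a partial chlorophyll a-b binding protein, had 8.47, 11.2 and 12.2 CPM in the control libraries, 1.05, 0.997 and 0.539 CPM under salt and 0.395, 0.271 and 0.436 CPM under water deficit. DN8438_c0_g1_i1, which the study matched to chlorophyll a-b binding protein 4 of the photosystem I antenna, had 45.5, 59.5 and 64.8 CPM in the control libraries, 11.0, 8.94 and 8.19 CPM under salt and 3.24, 2.57 and 3.83 CPM under water deficit, a fall of 5.95-fold under salt and 17.1-fold under water deficit. The 3 groups of libraries of DN8438_c0_g1_i1 did not overlap.

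Of 13 described transcripts of the photosystems and electron transport, 13 were called lower under salt and 9 under water deficit, none was called higher, and 4 are members. Photosystem I reaction center subunit DN5355_c0_g2_i1 had 18.4, 28.5 and 22.4 CPM in the control libraries, 5.05, 4.01 and 3.23 CPM under salt and 1.26, 1.76 and 1.48 CPM under water deficit. Photosystem I reaction center subunit DN2166_c0_g1_i1 had 13.6, 22.9 and 20.0 CPM in the control libraries, 4.00, 3.80 and 3.12 CPM under salt and 1.74, 1.62 and 1.66 CPM under water deficit. Each kept the order control, salt, water deficit with no overlap. The photosystem II core complex transcript DN6111_c0_g1_i1 had 7.55, 7.69 and 7.04 CPM in the control libraries, 0.364, 0.593 and 0.646 CPM under salt and 0.553, 0.812 and 1.13 CPM under water deficit, with overlapping stress groups. The proton gradient regulation transcript DN2530_c0_g1_i1, named for proteins of cyclic electron flow around photosystem I, had 5.28, 7.69 and 7.62 CPM in the control libraries, 0.227, 0.242 and 0.162 CPM under salt and 0.790, 0.541 and 0.392 CPM under water deficit. Here the order of the stresses was the opposite, with all water deficit libraries above all salt libraries. Magnesium-protoporphyrin IX monomethyl ester transcript DN3556_c0_g2_i1, from chlorophyll synthesis, had 21.1, 29.5 and 29.6 CPM in the control libraries, 6.82, 6.46 and 6.30 CPM under salt and 3.87, 3.92 and 4.14 CPM under water deficit. It was the single member among 8 described transcripts of chlorophyll synthesis and breakdown, of which 6 were called lower under each stress and 2 higher under salt.

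Early light-induced proteins are thylakoid proteins that rise when leaves meet strong light. All 3 described transcripts were called lower under both stresses, and 2 are members. DN7781_c1_g2_i1 had 43.6, 45.4 and 46.9 CPM in the control libraries, 7.32, 5.71 and 6.52 CPM under salt and 5.22, 10.3 and 6.80 CPM under water deficit, and DN1631_c0_g1_i1 had 13.2, 13.4 and 13.2 CPM in the control libraries, 1.41, 0.593 and 0.593 CPM under salt and 0.870, 2.3 and 1.48 CPM under water deficit. In both, the highest of the stress libraries was the replicate 2 water deficit library, and salt and water deficit overlapped. Among enzymes of carbon fixation and photorespiration, 25 transcripts were described, of which 21 were called lower and 4 higher under salt, and 17 lower and 1 higher under water deficit. The 3 members were the chloroplast dicarboxylate transporter DN1158_c0_g2_i1, which exchanges carboxylates across the plastid envelope, at 24.1 to 25.6 CPM in controls and 3.25 to 5.85 CPM under stress, NADP-dependent glyceraldehyde-3-phosphate dehydrogenase DN15992_c0_g1_i1, at 15.3 to 19.4 CPM in controls and 2.61 to 4.06 CPM under stress, and beta carbonic anhydrase DN746_c0_g1_i1. Beta carbonic anhydrase, which makes bicarbonate from carbon dioxide, had 7.71, 12.1 and 13.0 CPM in the control libraries, 2.59, 2.80 and 0.862 CPM under salt and 0.0790, 0.947 and 0.436 CPM under water deficit.

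Clock and light-signalling transcripts moved in both directions in the leaf, and the 8 members were the ones with the deepest common fall. Of 23 described transcripts in this list, 14 were called lower and 9 higher under salt, and 12 lower and 7 higher under water deficit. The response regulator-like aprr9, DN7733_c0_g2_i1, a pseudo-response regulator that represses morning clock genes in Arabidopsis, had 23.2, 20.1 and 19.0 CPM in the control libraries, 1.23, 1.02 and 1.24 CPM under salt and 3.40, 1.35 and 2.05 CPM under water deficit. Its neighbour on the same component, aprr5 (DN7733_c0_g1_i1), had 22.3, 22.7 and 20.2 CPM in the control libraries, 1.27, 1.02 and 1.40 CPM under salt and 6.01, 2.84 and 4.01 CPM under water deficit. Under salt both stood at 1.02 to 1.40 CPM, and under water deficit both lay above every salt library. Reveille 8 (DN5511_c0_g1_i1), an activator of other clock genes in Arabidopsis, had 3.10, 3.20 and 2.98 CPM in the control libraries, 0.273, 0.350 and 0.108 CPM under salt and 0.316, 0.271 and 0.174 CPM under water deficit. B-box zinc finger protein 32 (DN19933_c0_g1_i1), whose Arabidopsis relative acts in light signalling, had 5.62, 4.34 and 3.40 CPM in the control libraries, 0, 0.0808 and 0.0539 CPM under salt and 2.53, 0.135 and 1.48 CPM under water deficit. These CPM stood for 0, 3 and 1 counts under salt and 32, 1 and 34 counts under water deficit, so the replicate 2 water deficit library was close to the salt level.

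The cop1-like transcript DN7651_c0_g1_i1, an E3 ubiquitin ligase type that removes light-signalling factors in darkness, had 17.9, 14.8 and 14.3 CPM in the control libraries, 2.96, 2.69 and 2.80 CPM under salt and 2.37, 3.25 and 3.23 CPM under water deficit. Constans-like 1 (DN6737_c0_g1_i1) had 10.2, 7.54 and 8.03 CPM in the control libraries, 1.77, 2.18 and 1.72 CPM under salt and 0.790, 1.49 and 0.697 CPM under water deficit, with all water deficit libraries below all salt libraries, and constans-like 5-like DN5305_c0_g1_i1 had 4.22 to 4.48 CPM in controls and 0.406 to 1.22 CPM under stress. Heading date 3a (DN679_c0_g1_i1), named for the florigen of rice, had 1.17 to 1.71 CPM in controls and at most 0.305 CPM under stress. The described transcripts of this list that were called higher under salt were other genes, among them bolting time control 1 (DN2466_c0_g1_i1, log2FC 2.42 under salt and 1.98 under water deficit), which acts in flowering time in beet, and constans-like 14-like DN12594_c0_g1_i1 (log2FC 5.52 and 4.80). Aprr1 (DN7862_c0_g1_i1), an evening member of the pseudo-response regulators, had a log2FC of 1.05 under salt (FDR 0.000186) and 0.82 under water deficit (FDR 0.00246, under the fold limit for a call), so that the described pseudo-response regulators did not share 1 direction.

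Isoprenoid enzymes of the plastid and terpene and sterol enzymes outside it were both among the members. A probable carotenoid cleavage dioxygenase, DN4405_c0_g1_i1, which the study matched to the plastid enzyme CCD4 that breaks carotenoids down, had 75.0, 78.3 and 86.6 CPM in the control libraries, 4.41, 5.25 and 4.42 CPM under salt and 3.79, 4.87 and 4.88 CPM under water deficit. The fall was 16.7-fold under salt and 17.4-fold under water deficit, with stress libraries that overlapped between 3.79 and 5.25 CPM. The transcript listed as "zeaxanthin chloroplastic" (DN6643_c0_g3_i1) had 68.0, 70.5 and 80.3 CPM in the control libraries, 8.51, 8.62 and 8.83 CPM under salt and 19.8, 9.74 and 16.1 CPM under water deficit. Its salt libraries were close together at 8.51 to 8.83 CPM and below all 3 water deficit libraries. The transcript listed as "geranylgeranyl diphosphate chloroplastic" (DN27426_c0_g1_i1), named after the precursor of carotenoids and the chlorophyll side chain, had 23.0, 31.4 and 32.3 CPM in the control libraries, 7.09, 6.03 and 6.57 CPM under salt and 6.01, 7.71 and 5.36 CPM under water deficit. Of 10 described transcripts of carotenoid and isoprenoid synthesis, 7 were called lower and 3 higher under salt, and 7 lower under water deficit, where the other 3 had log2FC of 0.10, 0.60 and 0.55 with FDR from 0.159 to 0.849.

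All 9 described transcripts in the list of triterpene, sesquiterpene and sterol metabolism were called lower under both stresses. Of these, 8 are members, with medians of -3.35 log2 CPM under salt and -2.75 under water deficit. The list and its counts also took in the geraniol 8-hydroxylase-like members DN2221_c0_g1_i1 and DN9170_c0_g1_i1, whose name belongs to none of these classes. Beta-amyrin synthase DN13169_c0_g1_i1, which closes the ring skeleton of oleanane triterpenes, had 9.98, 12.2 and 14.0 CPM in the control libraries, 1.05, 0.620 and 1.13 CPM under salt and 1.11, 5.14 and 2.31 CPM under water deficit. Beta-amyrin 28-oxidase-like DN6726_c0_g1_i1, the P450 type that oxidises beta-amyrin on the way to saponins, had 6.04, 10.3 and 10.6 CPM in the control libraries, 0.318, 0.431 and 0.700 CPM under salt and 1.11, 2.17 and 0.915 CPM under water deficit. For both enzymes the replicate 2 water deficit library was the highest of the stress libraries. Geraniol 8-hydroxylase-like DN2221_c0_g1_i1, named for a P450 of monoterpene metabolism, had 4.78, 4.55 and 4.14 CPM in the control libraries, 0.0910, 0.135 and 0.108 CPM under salt and 0.237, 0 and 0.174 CPM under water deficit. A second geraniol 8-hydroxylase-like transcript, DN9170_c0_g1_i1, had 8.80, 9.54 and 11.2 CPM in the control libraries, 2.18, 1.24 and 1.08 CPM under salt and 1.90, 1.76 and 1.92 CPM under water deficit. The first was almost lost under stress, whereas the second kept over 1 CPM in every library. The 2 sesquiterpene synthase transcripts, DN236_c0_g1_i1 and (+)-delta-cadinene synthase DN21117_c0_g1_i1, had 0.994 to 3.20 CPM and 1.99 to 2.99 CPM in controls, and at most 0.0872 CPM and 0.676 CPM under stress. The 2 transcripts of 7-dehydrocholesterol reductase, a late enzyme of sterol synthesis, had 3.81 to 4.78 CPM (DN11053_c0_g1_i1) and 1.41 to 2.60 CPM (DN23317_c0_g1_i1) in controls, and at most 0.700 and 0.500 CPM under stress. Of 14 described cytochrome P450 transcripts, which include these oxidases and their reductase, 12 were called lower and 1 higher under salt, 12 were called lower under water deficit, and 6 are members. A further cytochrome P450, DN6600_c0_g1_i1, had 1.32, 1.72 and 1.83 CPM in the salt libraries and 1.03, 1.76 and 1.44 CPM in the water deficit libraries, against 7.04, 8.68 and 6.71 CPM in the controls. NADPH--cytochrome P450 reductase DN8250_c0_g2_i1, the electron donor of these enzymes, had 24.6, 25.5 and 22.3 CPM in the control libraries, 6.69, 4.77 and 5.17 CPM under salt and 5.06, 4.74 and 5.05 CPM under water deficit.

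Transcripts for nitrate, ammonium and sulfate uptake and reduction made up 9 members. Of 22 described transcripts in this list, 16 were called lower and 5 higher under salt, and 13 lower and 2 higher under water deficit. Nitrate reductase DN6312_c0_g2_i1, which reduces nitrate to nitrite, had 60.0, 62.1 and 71.5 CPM in the control libraries, 7.69, 5.39 and 6.68 CPM under salt and 5.22, 5.14 and 3.70 CPM under water deficit. The fall was 9.72-fold under salt and 13.6-fold under water deficit, and each water deficit library was below each salt library. The ammonium transporter 1 member 2-like transcript DN6701_c0_g2_i1 had 20.7, 17.8 and 18.7 CPM in the control libraries, 3.18, 2.91 and 6.62 CPM under salt and 3.24, 3.11 and 2.57 CPM under water deficit. Both members described as nrt1 ptr family, which holds nitrate transporters, were low under stress. DN1973_c0_g2_i1 had 6.79 to 9.82 CPM in controls and at most 1.89 CPM under stress. DN24648_c0_g1_i1 had 0.828 to 1.43 CPM in controls and at most 0.305 CPM under stress. The oligopeptide transporter-type member DN23783_c0_g1_i1, given above, has another description and was not in this list. On the sulfur side, the sulfate transporter DN4172_c0_g1_i1 had 5.62, 5.62 and 6.04 CPM in the control libraries, 1.05, 0.808 and 1.13 CPM under salt and 1.03, 0.676 and 0.915 CPM under water deficit, and a second sulfate transporter (DN17976_c0_g1_i1) had 2.06 to 2.73 CPM in controls and 0.162 to 0.409 CPM under stress. The 2 transcripts of adenylylsulfate reductase, which reduces activated sulfate to sulfite, had 2.28 to 3.27 CPM (DN21241_c0_g1_i1) and 1.08 to 1.64 CPM (DN20689_c0_g1_i1) in controls, and at most 0.349 and 0.474 CPM under stress. Sulfite exporter family DN6720_c0_g2_i1 had 17.1, 18.4 and 12.0 CPM in the control libraries, 4.23, 3.42 and 3.77 CPM under salt and 1.98, 2.44 and 1.87 CPM under water deficit. The transcripts called higher under both stresses in this list were the 2 described as glutamate synthase 1, DN7123_c0_g2_i1 (log2FC 2.66 under salt and 3.05 under water deficit) and DN4539_c0_g1_i1 (2.21 and 2.63). In the replicate 2 water deficit library they stood near the controls, at 2.98 and 1.62 CPM, against 23.7 to 29.6 and 10.5 to 12.9 CPM in the other water deficit libraries.

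Granule-bound starch synthase DN4958_c0_g1_i1, which makes amylose, had 82.8, 101 and 102 CPM in the control libraries, 6.64, 3.96 and 4.63 CPM under salt and 10.8, 4.06 and 8.45 CPM under water deficit, a fall of 18.7-fold under salt and 13.0-fold under water deficit. The second starch member, the glucose-6-phosphate phosphate translocator DN24256_c0_g1_i1 of the plastid envelope, had 1.43, 1.64 and 2.07 CPM in the control libraries, 0, 0.0269 and 0.0539 CPM under salt and 0.395, 0 and 0.479 CPM under water deficit. Of 13 described starch transcripts, 7 were called lower and 6 higher under salt, and 5 lower and 1 higher under water deficit, so the list as a whole had no common direction. The 2 omega-6 fatty acid desaturase-type transcripts of the endoplasmic reticulum, which introduce the double bond of linoleate, had 8.54 to 9.52 CPM (DN5429_c0_g1_i1) and 3.27 to 4.11 CPM (DN10484_c0_g1_i1) in controls and at most 2.57 and 1.13 CPM under stress. They belong to 12 described transcripts of membrane lipids and oxylipins, of which 11 were called lower and 1 higher under salt, and 10 lower under water deficit. Senescence-specific cysteine protease sag39-like DN4241_c0_g1_i1, a protease of ageing leaves, had 6.79, 13.9 and 10.4 CPM in the control libraries, 1.23, 1.67 and 2.69 CPM under salt and 0.395, 0.812 and 2.40 CPM under water deficit. Among 6 described senescence transcripts, 5 were called lower and 1 higher under salt, and 3 lower under water deficit. The remaining list members were a pair of chaperone domain proteins (DN6867_c0_g3_i1 and DN6867_c0_g1_i1, 2.15 to 3.10 CPM in controls), a pair of cbl-interacting kinases (DN6685_c0_g1_i1 and DN23369_c0_g1_i1), an l-type lectin receptor kinase (DN1665_c0_g1_i1) and the sweet7-like sugar transporter DN19007_c0_g1_i1. Their stress libraries ranged from 0 to 0.812 CPM. Their lists moved in both directions under salt, with 17 lower and 6 higher of 24 described chaperones, 7 lower and 3 higher of 10 in calcium and kinase signalling, 18 lower and 9 higher of 30 in disease resistance and receptors, and 2 lower and 8 higher of 10 in sugar transport. Under water deficit the counts were 8 and 6, 6 and 0, 13 and 1, and 2 and 2. None of 4 described transcripts for choline and glycine betaine synthesis was a member.

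The 6 components with more than 1 member held 14 of the 150, and reads common to transcripts of 1 component were not counted. DN7253 carried 4 members, 2 of them (DN7253_c0_g2_i1 and DN7253_c0_g3_i1) described as math and lrr domain-containing protein. DN7253_c0_g2_i1 had 11.8, 8.97 and 7.78 CPM in the control libraries, 0.773, 0.862 and 0.539 CPM under salt and 1.03, 0.676 and 0.567 CPM under water deficit. DN7253_c0_g1_i1, listed as uncharacterized, had 27.1, 22.8 and 15.4 CPM in the control libraries, 0.773, 0.754 and 0.323 CPM under salt and 2.61, 1.89 and 1.57 CPM under water deficit. The water deficit values of DN7253_c0_g1_i1 were all above its salt values, whereas those of DN7253_c0_g2_i1 overlapped with its own salt values. The other pairs were the tropinone reductase homologs, the lhcii type 1-like transcripts, aprr9 and aprr5, the chaperone domain proteins, and DN7785_c0_g1_i1 and DN7785_c0_g2_i1, both listed as uncharacterized. The members' components held 16 further tested transcripts, and 13 of them also had all 6 stress libraries below all controls, as 11.9% of all transcripts tested had. Among members outside the lists, the cyclic dof factor 1 match DN6801_c0_g1_i1 (a repressor of flowering genes in Arabidopsis), thioredoxin f DN7098_c0_g3_i1 (an activator of plastid enzymes in light), the plastid sigma factor DN16614_c0_g1_i1 and tify 10a DN25570_c0_g1_i1 (of the jasmonate repressor family) were picked out after their values were seen, as was the first-ranked member. The dof factor had means of 6.94 ± 0.469 CPM (SD, n = 3) in controls, 1.25 ± 0.251 CPM under salt and 0.982 ± 0.658 CPM under water deficit. Thioredoxin f had means of 8.59 ± 1.05 CPM in controls, 1.12 ± 0.163 CPM under salt and 1.25 ± 0.376 CPM under water deficit. The sigma factor, which directs the plastid RNA polymerase to its promoters, had means of 15.0 ± 1.97 CPM in controls, 1.66 ± 0.270 CPM under salt and 2.06 ± 0.265 CPM under water deficit. Tify 10a had means of 2.95 ± 0.338 CPM in controls, 0.0932 ± 0.0404 CPM under salt and 0.373 ± 0.148 CPM under water deficit. Tify 10a was higher in each water deficit library than in each salt library, without a call. The first-ranked member, DN16006_c0_g1_i1, was listed as uncharacterized and had 6.62, 10.6 and 6.04 CPM in the control libraries, 0.0455, 0.135 and 0.0539 CPM under salt and 0.0790, 0.135 and 0.131 CPM under water deficit. Gene ontology names were available for 108 members, of which 14 carried membrane part, 12 each chloroplast part, tetrapyrrole binding and transition metal ion binding, and 11 cation binding.

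Some transcripts that mark other features of the leaf samples moved with the groups, and those of viruses had no call. All of them have a description because the study selected them on these same libraries under salt. Their direction under salt, in counts and in sums, is therefore not independent evidence. The 8 described transcripts of epidermis and cuticle summed to 29.9 to 33.95 CPM in controls, 68.6 to 78.4 CPM under salt and 48.4 to 95.0 CPM under water deficit, with 6 of 8 called higher under salt and 2 of 8 under water deficit, and none of them a member or at 0 in any library. The 2 called under water deficit were lipid transfer proteins of 1 component, DN4324_c0_g1_i1 with 27.8, 2.16 and 27.9 CPM and DN4324_c0_g2_i1 with 35.6, 1.76 and 38.3 CPM in the water deficit libraries, against at most 1.14 CPM in controls, and the log2FC of the other 6 ran from -0.66 to 0.45 under that stress. The 2 transcripts whose descriptions name ribulose bisphosphate carboxylase summed to 90.2 to 116 CPM in controls, 29.6 to 39.6 CPM under salt and 9.41 to 20.6 CPM under water deficit. Of these, DN7439_c0_g1_i1 has a description that names no subunit, so it may not be rubisco itself. The small chain DN8208_c0_g1_i1 alone had 54.0 to 70.5 CPM in controls, 18.2 to 28.7 CPM under salt and 4.82 to 13.7 CPM under water deficit. The 3 described virus transcripts summed to 54.4 to 78.8 CPM in controls, 90.1 to 304 CPM under salt and 42.7 to 150 CPM under water deficit, and none of them was called. The part of these transcripts in the falls of the members was not tested.

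The comparison of water deficit with salt asks where the stresses differ among transcripts that are low in both. It was not used to choose the members, although the same 6 stress libraries entered the selection. By the same call, in either direction, 7 members were higher under water deficit (4.67% of members, against 1.75% of all transcripts tested) and 6 were lower (4% of members, against 2.36%). The other 137 were not called. Among those called higher, DN19933_c0_g1_i1, DN10818_c0_g1_i1 and DN21479_c0_g1_i1 passed the expression filter only through the control libraries, where members are high by selection. They count toward the 4.67% only through the selection, so that share is not a result about the members. With the 6 stress libraries alone, 3 members were called higher and 5 lower. The median log2FC over members was 0.05, beside 0.02 over all transcripts tested. The median log2FC of the lists ran from -1.20 (cellulose synthase-like) to 2.07 (starch), and each of these lists had only 2 members. The starch median took in DN24256_c0_g1_i1, not called, at 0, 0.0269 and 0.0539 CPM under salt, where single reads set the values. Libraries of the stresses did not overlap, with water deficit above salt, in 18 members (12%, background 12.8%), and with water deficit below salt in 21 members (14%, background 15.6%), which is near the background.

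**Figure D3:**
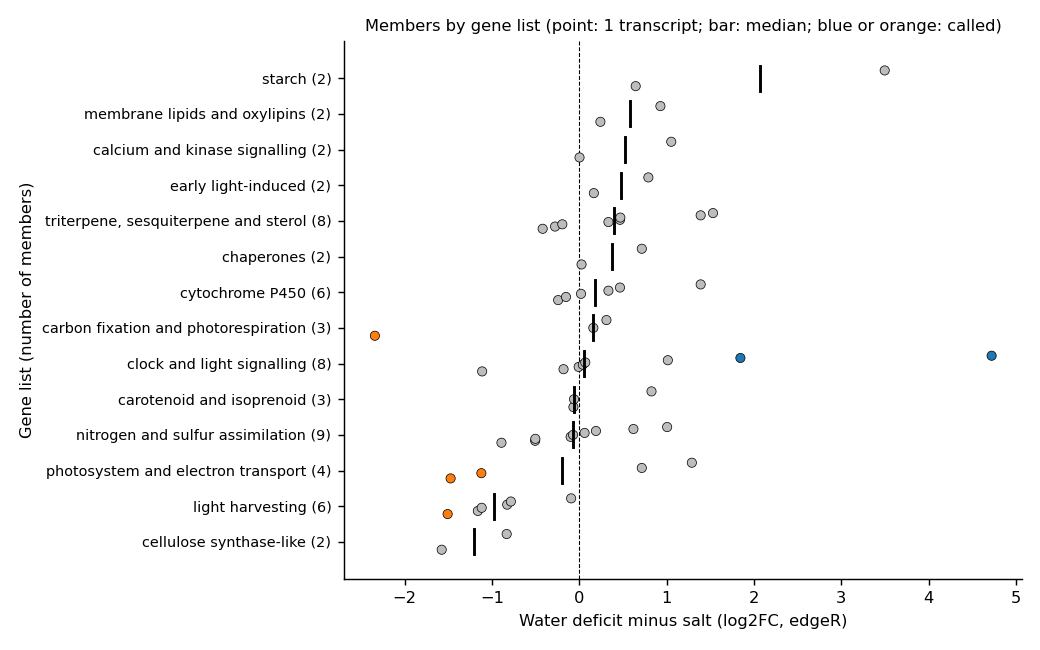
Water deficit minus salt log2FC from edgeR on the horizontal axis, for members in each gene list with at least 2 members, listed on the vertical axis with the number of members. Points are transcripts, bars are medians, and blue or orange points are members called higher or lower. All 6 light-harvesting members lie below 0, while the 8 clock and light-signalling members spread from -1.11 to 4.72.

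Of the 6 members lower under water deficit than salt, 3 were transcripts of photosystem I and its antenna and 1 was of carbon supply. Chlorophyll a-b binding DN8438_c0_g1_i1 had a log2FC of -1.51 (SE 0.23, FDR 0.000607), and it was called in all 17 alternatives run at these thresholds. At an absolute log2FC above 2, neither it nor the photosystem I subunits would be called. The photosystem I subunits had a log2FC of -1.47 (SE 0.25, FDR 0.00168) for DN5355_c0_g2_i1 and a log2FC of -1.12 (SE 0.24, FDR 0.00631) for DN2166_c0_g1_i1, and their calls were lost in 3 and 8 of the 17. Beta carbonic anhydrase DN746_c0_g1_i1 had a log2FC of -2.34 (SE 0.51, FDR 0.00734), although its lowest salt library (0.862 CPM) was below its highest water deficit library (0.947 CPM), and the call was lost in 10 of the 17. The transcript listed as "kda proline-rich" (DN2620_c0_g1_i1) had 1.18, 0.646 and 1.08 CPM in the salt libraries and 0.0790, 0.135 and 0.174 CPM in the water deficit libraries, against 4.28, 5.20 and 7.20 CPM in the controls, and a log2FC of -2.67 (SE 0.51, FDR 0.00297), with the call lost in 4 of the 17. DN7371_c0_g1_i1, without a description, had 1.09, 1.32 and 1.24 CPM in the salt libraries and 0.158, 0.541 and 0.218 CPM in the water deficit libraries, against 4.95, 5.34 and 7.70 CPM in the controls, and a log2FC of -2.22 (SE 0.40, FDR 0.00202), with the call lost in 3 of the 17. The other 5 light-harvesting members had log2FC from -1.16 to -0.09 with FDR from 0.0231 to 0.914 and were not called.

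The largest log2FC among members called higher under water deficit than salt was 4.72 (SE 0.71, FDR 0.000611), for B-box zinc finger protein 32 (DN19933_c0_g1_i1). This transcript was called in all 16 alternatives that tested it at these thresholds. It was not tested with the 6 stress libraries alone, where it did not pass the expression filter. Aprr5 (DN7733_c0_g1_i1) had a log2FC of 1.84 (SE 0.25, FDR 0.000327) and was called in 16 of 17 alternatives at these thresholds but falls short of an absolute log2FC of 2, whereas its neighbour aprr9 (DN7733_c0_g2_i1) had a log2FC of 1.01 (SE 0.27, FDR 0.0223) and was not called. Both tetratricopeptide repeat-like transcripts called here were near 0 under salt. DN10818_c0_g1_i1 had 0.136, 0.0808 and 0.108 CPM in the salt libraries and 0.870, 0.406 and 0.784 CPM in the water deficit libraries, against 3.19, 3.06 and 4.22 CPM in the controls, and a log2FC of 2.75 (SE 0.45, FDR 0.00120), with the call lost in 2 of 16 alternatives. DN21479_c0_g1_i1 had 0.0455, 0.0269 and 0 CPM in the salt libraries and 0.553, 0.135 and 0.305 CPM in the water deficit libraries, against 1.93, 2.42 and 2.24 CPM in the controls, and a log2FC of 3.44 (SE 0.73, FDR 0.00607), with the call lost in 10 of 16 alternatives, DESeq2 among them. These salt values stood for 3, 3 and 2 counts of DN10818_c0_g1_i1 and 1, 1 and 0 counts of DN21479_c0_g1_i1. With the 6 stress libraries alone neither passed the expression filter, so both were tested only because the control libraries were in the fit. Scopoletin glucosyltransferase-like DN5752_c0_g1_i1, which attaches glucose to a coumarin, had 0.364, 0.377 and 0.593 CPM in the salt libraries and 0.711, 1.89 and 1.66 CPM in the water deficit libraries, against 4.61, 6.33 and 6.96 CPM in the controls, and a log2FC of 1.70 (SE 0.36, FDR 0.00607), with the call lost in 8 of 17 alternatives. The uncharacterized transcripts DN21_c0_g1_i1 and DN7253_c0_g1_i1 had a log2FC of 2.29 (SE 0.42, FDR 0.00242) and a log2FC of 1.62 (SE 0.34, FDR 0.00561), with the calls lost in 5 and 7 of 17.

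The counts of calls moved when single libraries were left out, which also leaves fewer libraries for the test. Without the replicate 1, 2 or 3 salt library, 3, 2 and 3 members were called higher and 2, 3 and 5 lower. Without the replicate 1, 2 or 3 water deficit library, 5, 11 and 3 were called higher and 1, 8 and 1 lower. Without the replicate 2 control library, 4 were called higher and 5 lower. No call changed sign in the settings run. Scaling to library totals alone moved the median water deficit minus salt difference of all transcripts to -0.41 log2 CPM, and 2 members were then called higher and 5 lower.

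**Figure D4:**
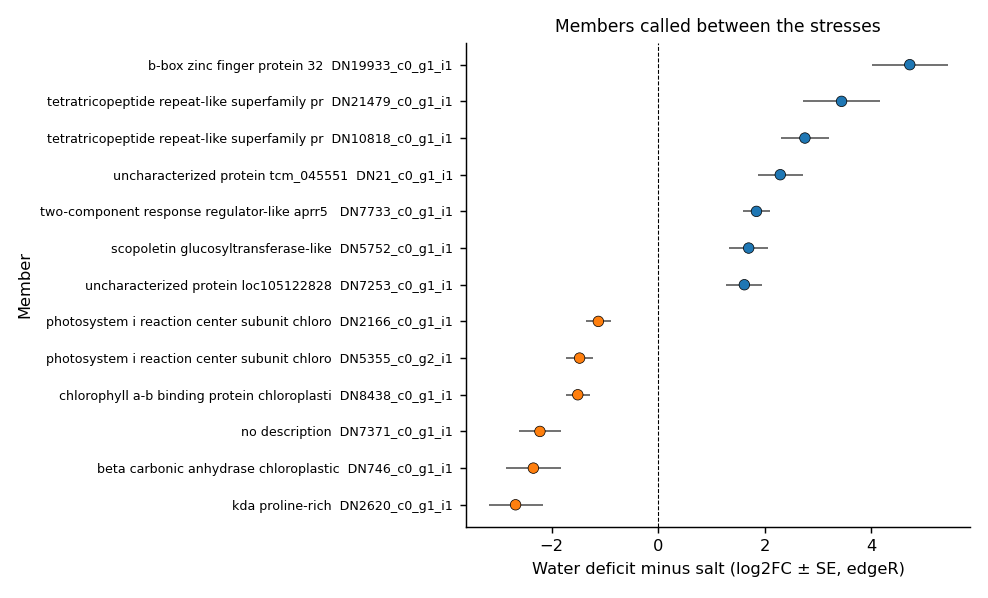
Water deficit minus salt log2FC with its standard error from edgeR (horizontal axis) for the 13 members called between the stresses (vertical axis, description and identifier). Blue points are higher and orange points lower under water deficit, and the values run from -2.67 for the proline-rich transcript to 4.72 for B-box zinc finger protein 32.

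The libraries of *A. hybridus* took no part in the choice of members. Its assembly is separate, so transcripts were paired with members by identical description, which does not establish that they are the same gene, and levels were not compared between species. Of 97 distinct member descriptions, 20 also occurred among described *A. hybridus* transcripts, in 22 transcripts, of which 19 passed the expression filter. Under water deficit, 15 of the 19 were called lower and none higher, against 3.27% and 0.96% of 9686 transcripts tested. DESeq2 called 17 lower and 0 higher, the exact test of edgeR 17 and 1, and at an unadjusted p below 0.05 the numbers were 17 and 2. Shares of all transcripts tested are not given for these other settings, so their counts cannot be set against a background. The median log2FC was -3.93, beside 0.01 over all transcripts tested. The study described *A. hybridus* transcripts only where it had selected them on these libraries, and only part of its lists was at hand. In that part, 16 of 34 described transcripts listed as lower under water deficit shared a description with a member. Of 310 listed as higher, 2 did. These totals are not the sizes of the study's lists. The count is therefore a description and not independent evidence of its direction. Under salt, 0 of the 19 were called lower and 0 higher by the quasi-likelihood test, against 0% and 0.0103% of all transcripts tested, while DESeq2 and the exact test each called 3 lower. The study itself selected some as lower under salt. In the part at hand, 5 of 93 described transcripts listed as lower shared a description with a member, against 0 of 21 listed as higher. At an unadjusted p below 0.05, 7 were lower and 0 higher, and the median log2FC was -0.54, beside -0.03 over all transcripts tested. For the 3 and the 7 lower under salt, too, no share of all transcripts tested is given.

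Tropinone reductase homolog DN2491_c0_g1_i1 of *A. hybridus* had 3.29, 1.96 and 3.59 CPM in the control libraries, 1.39, 1.88 and 2.04 CPM under salt and 0.0514, 0 and 0 CPM under water deficit. Its log2FC was -7.02 (SE 0.61, FDR 5.00e-05) under water deficit and -0.71 (SE 0.32, FDR 0.648) under salt. Geraniol 8-hydroxylase-like DN6486_c0_g1_i1 had 5.28, 5.21 and 5.79 CPM in the control libraries, 5.47, 5.07 and 5.00 CPM under salt and 0.206, 0.131 and 0.223 CPM under water deficit. Its salt and control libraries overlapped, and only the water deficit libraries were low, with a log2FC of -4.87 (SE 0.31, FDR 3.34e-06). Cellulose synthase-like protein g2 (DN9567_c0_g1_i1) had 6.77, 11.2 and 11.6 CPM in the control libraries, 8.26, 6.51 and 13.0 CPM under salt and 0.206, 0.438 and 0.742 CPM under water deficit, and a log2FC of -4.47 (SE 0.45, FDR 7.97e-05) under water deficit. Nitrate reductase DN9040_c0_g1_i1 had 48.6, 37.0 and 36.7 CPM in the control libraries, 22.7, 29.2 and 21.7 CPM under salt and 1.59, 1.23 and 6.53 CPM under water deficit, and a log2FC of -3.74 (SE 0.55, FDR 0.00104) under water deficit. Carotenoid cleavage dioxygenase DN9656_c0_g1_i1 had 75.6, 72.9 and 63.2 CPM in the control libraries, 38.0, 50.0 and 57.7 CPM under salt and 3.29, 2.28 and 8.45 CPM under water deficit, and a log2FC of -3.93 (SE 0.48, FDR 0.000318) under water deficit. For these 3 transcripts each water deficit library was below each control and each salt library. Constans-like 1 (DN7210_c0_g1_i1), a chlorophyll a-b binding protein (DN9789_c1_g1_i1) and a photosystem I subunit (DN6148_c0_g1_i1) had log2FC of -4.01, -4.66 and -4.15 under water deficit and -0.12, -1.01 and -0.80 under salt.

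The 4 transcripts not called under water deficit were ammonium transporter 1 member 2-like (DN10618_c0_g1_i1, log2FC -1.75 (SE 0.39, FDR 0.0129)), thiamine thiazole synthase (DN9154_c0_g1_i1, -1.59 (SE 0.39, FDR 0.0206)), bark storage protein a-like (DN7561_c0_g1_i1, 3.27 (SE 0.80, FDR 0.0206)) and 1 of 2 sulfate transporters (DN6198_c0_g1_i1, 1.45 (SE 0.48, FDR 0.0801)). Bark storage protein a-like had 0.697, 0.929 and 1.51 CPM in the control libraries, 2.49, 0.939 and 0.548 CPM under salt and 12.7, 19.1 and 0.742 CPM under water deficit, so that the replicate 3 water deficit library was apart from the other 2. Without that library more of the 22 passed the filter, and 19 were called lower and 2 higher. In *A. hybridus* 13 of the 19 were lower under water deficit than under salt (background 1.86%) and none was higher (background 0.258%, and 2 at an unadjusted p below 0.05). Whether the salt response of these transcripts differs between the species was not tested.

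**Figure D5:**
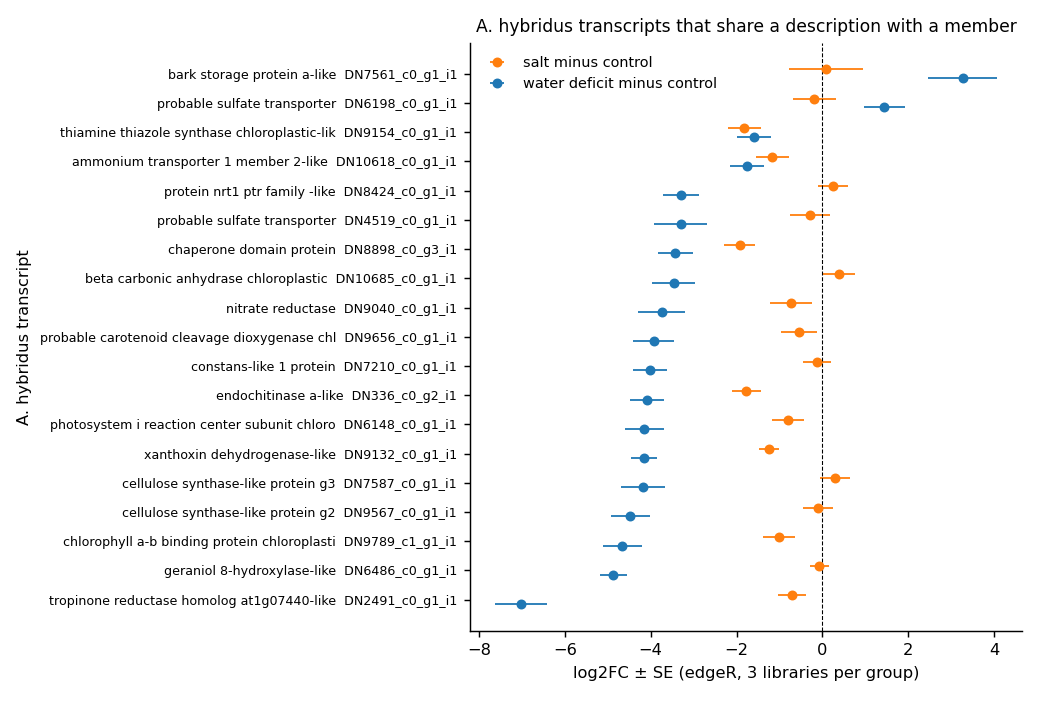
Log2FC with its standard error from edgeR (horizontal axis) for the 19 tested *A. hybridus* transcripts that share a description with a member (vertical axis), for salt minus control in orange and water deficit minus control in blue, with 3 libraries per group. The salt values lie between -1.93 and 0.38, and 15 of the water deficit values are called lower, from -7.02 to -3.29.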

How the data were processed

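Leaf RNA of 18 libraries was sequenced by the authors, trimmed with Trimmomatic, mapped with Bowtie2 2.3.0 to a Trinity assembly of each species and counted per transcript, keeping only reads with 1 mapping place. The authors deposited raw counts for each library, without normalization, and every column was used. Libraries were grouped by the treatment in their labels. Counts were analysed per species in R 4.3.3 with edgeR 4.0.16 (filterByExpr over 3 groups, TMM, glmQLFit and glmQLFTest, 6 residual degrees of freedom) and DESeq2 1.42.0. Figures were drawn in Python 3.11.15 with matplotlib 3.10.9. FDR is the Benjamini-Hochberg value over all transcripts tested, transcripts were called at an FDR below 0.01 with a log2FC beyond 1 in size, and standard errors were taken as the size of the log2FC over the root of its F statistic. The scripts were tested on simulated data. P-values measure the spread between 3 libraries a group. CPM values use TMM factors, and since transcript lengths were not used, levels were compared between libraries and not between transcripts. Sums of CPM over transcripts were likewise compared only between libraries. Unique mapping removes reads shared by near-identical transcripts. Members and gene lists were chosen with earlier results of these data known. The rule for named transcripts took the 25 highest members with a description, members in a list or on a shared component, members called between the stresses, those beside the rank limit, and *A. hybridus* transcripts with a member's description. Lists were patterns on descriptions in the part of the authors' tables at hand, of which 1 match on part of a word was removed. The log2FC and p-value columns of those tables were not used. Alternatives were RLE size factors, library totals, other filters, DESeq2, the exact test, 6 libraries only, a replicate block, other thresholds, other prior counts, no left-out components, and each library left out. No sequences are printed, since none were used here.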

Additional observations from a re-analysis of the deposited data

How the results depend on the processing

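All 150 members were lower than control under both stresses by TMM, RLE size factors and library totals, and 148 kept non-overlapping libraries with library totals, which moved the median of all transcripts to 0.68 (salt) and 0.26 (water deficit) log2 CPM. The median over members was then -2.12 under salt and -2.41 under water deficit. With a prior count of 0.5 the medians were -3.11 and -3.10, and with 5 they were -2.42 and -2.39. When the rule was applied again, it kept 131 of the 150 with library totals, 130 with the filter of CPM above 1 in 3 libraries, 141 and 135 with prior counts of 0.5 and 5, and 127 to 142 without 1 library, where the medians lay between -2.89 and -2.77 under salt and between -2.82 and -2.70 under water deficit. Members higher under water deficit than salt numbered 2 with library totals, 11 by the exact test, 3 with the 6 libraries of the comparison, 12 at an FDR below 0.05 (11 lower), 4 at an absolute log2FC above 2 (3 lower), 11 without the left-out components, and 2 to 11 without 1 library (1 to 8 lower). DESeq2 called 7 and 6. The called members had 218 values under alternatives at the main thresholds, of which 61 lost the call and 0 reversed. Called members that the filter dropped in the 6 libraries of the comparison have no value there. *A. hybridus* transcripts lower under water deficit numbered 7 with library totals, under which the median log2FC of all its transcripts was -1.17, and 14 to 19 without 1 library. Those higher numbered 1 without the filter, 1 by the exact test, 1 at an FDR below 0.05, and 0 to 2 without 1 library. The deviations of same-numbered *A. hypochondriacus* libraries correlated at -0.09 to 0.06, which cannot show whether replicate numbers pair the libraries. The plants were treated in randomized blocks, but no source used here ties a replicate number to a block. With the replicate block 6 members were called higher and 4 lower (the calls of DN21479_c0_g1_i1, DN746_c0_g1_i1 and DN2166_c0_g1_i1 were lost), and 14 *A. hybridus* transcripts lower and 0 higher. Depth limits members near 0 under stress, where a water deficit library held a median of 7 counts per member.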
